A study of Arabidopsis thaliana with 4 samples.

Results

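Aquaporins are channel proteins that let water and small neutral solutes across plant membranes. The family is described here in the root of *Arabidopsis thaliana*, gene by gene, in 4 RNA-seq libraries. Members were chosen by their gene identifiers as the plasma membrane (PIP), tonoplast (TIP), NOD26-like (NIP) and small basic (SIP) intrinsic proteins, a rule that uses no measured value and gave 35 genes. Reads fell on 33 of the 35, out of 23425 genes with reads in any library. The names are those of the RefSeq gene table. *PIP1A*, *PIP1B*, *PIP1C*, *PIP1E* and *PIP1D* are also numbered PIP1;1 to PIP1;5 in that order, and *PIP2A*, *PIP2B*, *PIP2C*, *PIP2F*, *PIP2D*, *PIP2E*, *PIP3* and *PIP3B* are PIP2;1 to PIP2;8. *GAMMA-TIP*, *GAMMA-TIP2* and *GAMMA-TIP3* are TIP1;1 to TIP1;3, *DELTA-TIP*, *DELTA-TIP2* and *DELTA-TIP3* are TIP2;1 to TIP2;3, and *NLM1* and *NLM2* are NIP1;1 and NIP1;2.

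The study asked which root genes answer to auxin and depend on ARF7, an auxin response factor that acts in lateral root formation. RNA came from the roots of 8-day-old seedlings in 4 conditions with 1 library each. *arf7*-NAA was the *arf7* mutant exposed to naphthalene acetic acid (NAA), a synthetic auxin, and *arf7*-Mock was the same mutant without it. WT-NAA was the wild type Col exposed to NAA, and WT-Mock was the wild type without it. The mutant was a single T-DNA insertion line in the Col background. Per the study's methods NAA was given at 10 μM for 4 hours, while column tags in the deposited comparisons read N50 for both NAA libraries, without explanation, so these data do not fix the dose. The sample labels speak of growth in the dark and the methods of a photoperiod. With 1 library per condition no difference below has a replicate check, and every test on reads compares libraries, not conditions.

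PIPs sit in the plasma membrane. The PIP2 type conducts water well on its own, and the PIP1 type needs a PIP2 partner to reach the membrane in many cell systems. TIPs sit in the membrane of the vacuole and carry water and, by member, urea, ammonia or hydrogen peroxide. NIPs carry metalloids such as boric acid and arsenite, and SIPs reside in the endoplasmic reticulum. In roots, PIPs set much of the water permeability of the tissue, and earlier work placed aquaporin genes under auxin control during the emergence of lateral roots. The direction reported in that work is not compared with these data.

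The libraries held 7.03 M reads in *arf7*-NAA, 7.23 M in *arf7*-Mock, 7.42 M in WT-NAA and 7.57 M in WT-Mock. *ARF7* itself had 3, 8, 12 and 6 reads in that order, which covered 1.40% to 2.10% of its length and does not check the genotype labels. Of the auxin-inducible genes, *GH3.3* had 1622 reads in *arf7*-NAA, 697 in *arf7*-Mock, 171 in WT-NAA and 94 in WT-Mock. *LBD29*, a known ARF7 target, had 7, 4, 78 and 30 reads in the same order and was lower in both *arf7* libraries. *LBD16* had 117, 91, 165 and 132 reads, and *IAA19* was flat with 39, 38, 38 and 41. Within each genotype *GH3.3* had more reads with NAA, yet it had more in *arf7*-Mock than in WT-NAA. These genes thus give a mixed check of the NAA labels, which are taken as given. Markers of seed and shoot were also uneven. The 11 seed genes summed to 348 reads in *arf7*-NAA, 26 in *arf7*-Mock, 6 in WT-NAA and 11 in WT-Mock, with *CRA1* and *CRC* at 0 in all libraries. The 5 shoot genes summed to 662, 104, 264 and 366 reads in the same order, and most of these were *CAB1* reads. The *arf7*-NAA library thus held the most reads of both lists.

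Aquaporins were a sizeable part of the root transcriptome. The 35 genes took 0.727% of the reads in *arf7*-NAA, 0.698% in *arf7*-Mock, 0.826% in WT-NAA and 0.624% in WT-Mock. Levels are given as RPKM, the reads of a gene scaled to transcript length and library total, summed over the transcript models of the gene. The family summed to 6474 RPKM in *arf7*-NAA, 6243 in *arf7*-Mock, 7324 in WT-NAA and 5546 in WT-Mock. WT-NAA was 1.32-fold above WT-Mock, while *arf7*-NAA was 1.04-fold above *arf7*-Mock. Of the uniquely counted reads, which leave members such as *PIP2A* largely unmeasured, the 3 leading genes were the vacuolar *GAMMA-TIP* and *GAMMA-TIP2* and the plasma membrane *PIP2B*. They made up 70.1% of the summed RPKM in *arf7*-NAA, 66.6% in *arf7*-Mock, 70.7% in WT-NAA and 68.2% in WT-Mock.

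**Figure D1:**
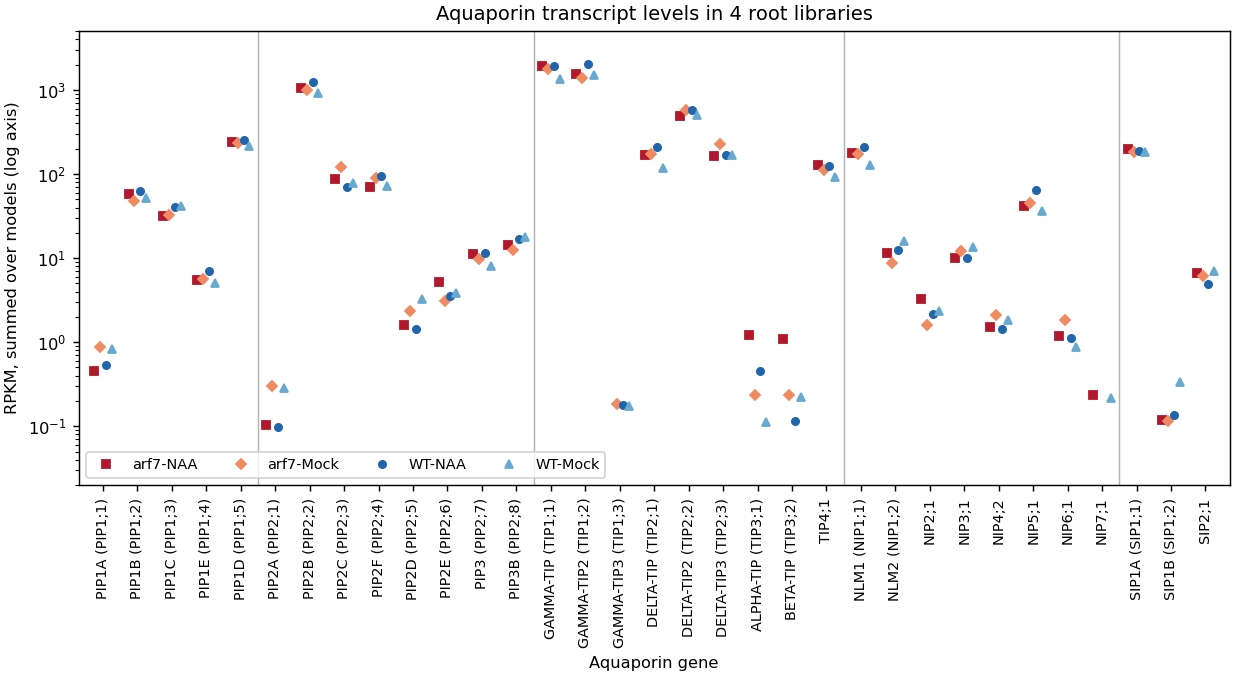
RPKM of each of the 33 aquaporin genes with reads, on a log axis, with 1 point per library and grey lines between PIP1, PIP2, TIP, NIP and SIP genes. A library without reads has no point. The 3 leading genes lie between 911.1 and 2023 RPKM, and the same genes lead in all 4 libraries.

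The spread within the family was wide. Of the 33 genes with reads, 15 reached 20 RPKM in at least one library and 18 stayed below it in every library, the highest of these being *PIP3B* at 17.8 RPKM in WT-Mock. *TIP5;1* and *NIP4;1*, both known from pollen, were not listed in any library. By subfamily the TIPs summed to 4435 RPKM in *arf7*-NAA, 4252 in *arf7*-Mock, 5029 in WT-NAA and 3746 in WT-Mock, between 67.6% and 68.7% of the family. PIP2 genes followed with 1246, 1239, 1434 and 1096 RPKM in the same order. The PIP1 genes (337.6, 318.6, 363.5 and 312.7 RPKM), the NIPs (247.6, 242.8, 302.9 and 199.8 RPKM) and the SIPs (208.0, 191.0, 195.4 and 190.5 RPKM) were smaller. These sums hold uniquely counted reads only, and for 10 members, 4 of them PIP1 genes, reads covered less than 20% of the transcript, as described below. Without the 10, *PIP1D* alone was left of the PIP1 genes, and the NIPs were above it in *arf7*-NAA (247.3 against 241.3 RPKM), *arf7*-Mock (242.8 against 231.5) and WT-NAA (302.9 against 252.0) and below it in WT-Mock (199.6 against 213.9). TIPs and PIP2 genes stayed the largest in all 4 libraries.

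**Figure D2:**
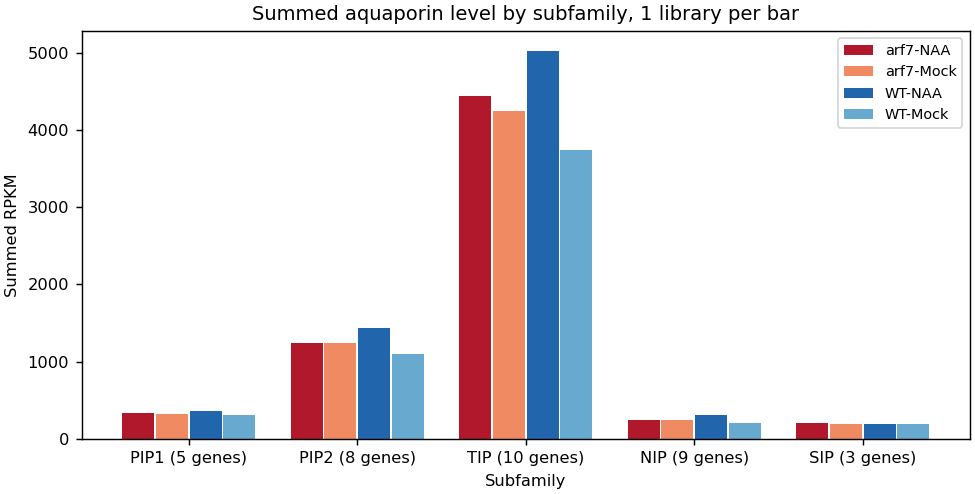
Summed RPKM of the 5 aquaporin subfamilies, with 1 bar for each library and bars from 0. WT-NAA has the tallest bar of PIP1, PIP2, TIP and NIP, and *arf7*-NAA that of SIP (208.0 RPKM).

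The deposited counts are labelled as unique reads of a transcript model. Whether this left out reads shared by the models of a gene or by near-identical copies is not stated. In 10 members reads covered less than 20% of the transcript in every library. For 5 of these, *PIP1B*, *PIP1C*, *PIP1E*, *PIP3* and *SIP2*, 41 to 607 reads fell on 8.53% to 17.9% of the length. The 16 other members with at least 41 reads in every library were covered over 78.9% to 99.7%. Each of the 5 has more than 1 RefSeq transcript, as do some well-covered members such as *PIP2B* and *NLM1*. The deposited counts, however, list 2 transcript models for each of the 5 and 1 for each of the 16. The part of this in the low coverage was not tested. The other 5, *PIP1A*, *PIP2A*, *GAMMA-TIP3*, AT3G06100 and *SIP1B*, had at most 8 reads. The levels of the 10 are not comparable with those of other genes, and the 1 to 3 reads of *PIP2A* in each library do not measure this known root aquaporin. Ratios between libraries are given for them as for the rest.

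**Figure D3:**
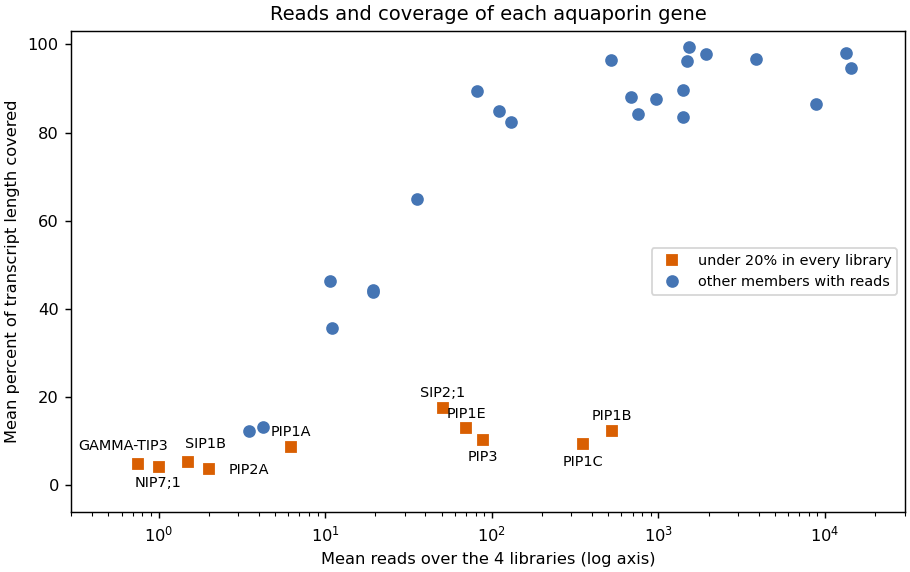
Mean percent of the transcript length covered by reads against mean reads over the 4 libraries (log axis), 1 point per aquaporin gene with reads. The 10 orange squares stay at or below 17.9% coverage in every library, and *PIP1B* does so with 453 to 607 reads.

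Among the PIP2 genes *PIP2B* (AT2G37170), a water channel of root cells, had 1055 RPKM in *arf7*-NAA, 1001 in *arf7*-Mock, 1235 in WT-NAA and 911.1 in WT-Mock. Its neighbour on chromosome 2, *PIP2C* (AT2G37180), first described as the desiccation-responsive *RD28*, had 88.0, 120.1, 71.0 and 79.2 RPKM in the same order. *PIP2B* thus exceeded *PIP2C* by 12.0-fold in *arf7*-NAA, 8.33-fold in *arf7*-Mock, 17.4-fold in WT-NAA and 11.5-fold in WT-Mock. The genes lie 2.61 kb apart in TAIR10.1, and their coding sequences of 858 bases each are 94.8% identical, the closest pair of the family, with a longest identical run of 242 bases. A read inside such a run cannot be assigned to one of them. The stretch of 90 bases with the most differences, coding positions 403 to 492 counted from the start codon in RefSeq transcripts, is shown because reads across it tell the genes apart, with the 12 differing bases in capitals.
PIP2B: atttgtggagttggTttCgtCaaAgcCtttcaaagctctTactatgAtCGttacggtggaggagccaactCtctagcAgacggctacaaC
PIP2C: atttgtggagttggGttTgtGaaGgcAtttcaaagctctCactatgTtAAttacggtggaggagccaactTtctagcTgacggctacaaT

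*PIP2F* (AT5G60660), a PIP2 gene expressed mainly in roots, had 69.9 RPKM in *arf7*-NAA, 89.7 in *arf7*-Mock, 94.5 in WT-NAA and 72.9 in WT-Mock. NAA thus went with a lower level in the mutant and a higher one in the wild type. The remaining PIP2 genes, *PIP2A*, *PIP2D*, *PIP2E*, *PIP3* and *PIP3B*, ranged from 0.0981 to 17.8 RPKM. In the PIP1 group *PIP1D* led with 241.3 RPKM in *arf7*-NAA, 231.5 in *arf7*-Mock, 252.0 in WT-NAA and 213.9 in WT-Mock. *PIP1B* followed with 58.5, 48.3, 63.1 and 51.2 RPKM and *PIP1C* with 31.8, 32.3, 40.7 and 41.7 RPKM in the same order, both from the low coverage given above. *PIP1D* was well covered and lay within 213.9 to 252.0 RPKM in all libraries.

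In the vacuolar group *GAMMA-TIP* (AT2G36830) and *GAMMA-TIP2* (AT3G26520) were among the most abundant transcripts of the root. *GAMMA-TIP* had 1912 RPKM in *arf7*-NAA, 1761 in *arf7*-Mock, 1920 in WT-NAA and 1353 in WT-Mock, and ranked between 8 and 19 of all genes by RPKM. *GAMMA-TIP2* had 1570, 1398, 2023 and 1516 RPKM in the same order and ranked between 7 and 18. The balance of this pair went with genotype. *GAMMA-TIP* was 1.22 times *GAMMA-TIP2* in *arf7*-NAA and 1.26 times in *arf7*-Mock, against 0.949 times in WT-NAA and 0.892 times in WT-Mock.

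The *DELTA-TIP* genes carry ammonia and urea as well as water into the vacuole. *DELTA-TIP* had 170.2 RPKM in *arf7*-NAA, 171.9 in *arf7*-Mock, 209.4 in WT-NAA and 116.6 in WT-Mock. *DELTA-TIP2*, the most abundant of them, had 490.0, 580.9, 578.9 and 498.6 RPKM in the same order. *DELTA-TIP3* had 164.8, 227.1, 170.2 and 170.0 RPKM. The genes did not follow one pattern: WT-Mock was low for *DELTA-TIP*, and *arf7*-Mock was high for *DELTA-TIP3*. *TIP4;1* (AT2G25810), a tonoplast channel for water and urea, had 126.5 RPKM in *arf7*-NAA, 111.6 in *arf7*-Mock, 125.7 in WT-NAA and 92.0 in WT-Mock.

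Seed and pollen TIPs were near the limit of detection. *ALPHA-TIP* and *BETA-TIP*, channels of the protein storage vacuole in seeds, had 10 and 9 reads in *arf7*-NAA, 2 and 2 in *arf7*-Mock, 4 and 1 in WT-NAA, and 1 and 2 in WT-Mock. None of their ratios passed the test. Both were highest in *arf7*-NAA, the library with 348 reads of the seed list, and the part of seed RNA in their reads was not tested. *GAMMA-TIP3*, a pollen gene, had at most 1 read per library.

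Among the NIPs *NLM1* (AT4G19030), a root channel known for arsenite uptake, had 178.7 RPKM in *arf7*-NAA, 171.7 in *arf7*-Mock, 211.7 in WT-NAA and 128.3 in WT-Mock. *NIP5;1* (AT4G10380), the boric acid channel of the root surface, had 41.3 RPKM in *arf7*-NAA, 44.7 in *arf7*-Mock, 64.0 in WT-NAA and 36.7 in WT-Mock. Both genes were lowest in WT-Mock and highest in WT-NAA, with the *arf7* libraries close to each other between them. *NLM2* (AT4G18910) was instead highest in WT-Mock and lowest in *arf7*-Mock, with 11.4 RPKM in *arf7*-NAA, 8.71 in *arf7*-Mock, 12.5 in WT-NAA and 16.1 in WT-Mock. *NIP3;1* had 9.96 to 13.5 RPKM, and the other NIPs with reads, AT2G34390, AT5G37820, AT1G80760 and AT3G06100, stayed at or below 3.31 RPKM. Of the SIPs, *SIP1A* was steady at 201.3 RPKM in *arf7*-NAA, 184.7 in *arf7*-Mock, 190.4 in WT-NAA and 183.1 in WT-Mock, while *SIP1B* and *SIP2* stayed at or below 7.05 RPKM.

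For each pair of libraries the reads of a gene were tested with an exact binomial test (two-sided) given the library totals, over all genes with reads. A gene was counted as different with P under 0.0001 and at least 2-fold, the threshold of the study, or at least 1.5-fold. At 2-fold 0 of 33 aquaporins differed in each of the 4 comparisons. The share of all genes that did was 1.09% in WT-NAA VS WT-Mock and 0.776% in *arf7*-NAA VS *arf7*-Mock. It was 1.04% in *arf7*-Mock VS WT-Mock, and it reached 1.40% in *arf7*-NAA VS WT-NAA. The aquaporin differences that passed P in these comparisons were therefore below 2-fold. Some genes with few reads had larger ratios that did not pass P, such as *BETA-TIP* with 9 reads in *arf7*-NAA and 1 in WT-NAA. Ratios are log2 values with exact 95% intervals (Clopper-Pearson) that cover counting error only, and 0 reads were set to 3.

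In WT-NAA VS WT-Mock, 3 of 33 aquaporins rose at 1.5-fold, against 1.38% of all genes, and 0 fell, against 1.62%. *DELTA-TIP* (AT3G16240) had 1778 reads in WT-NAA against 1011 in WT-Mock, a log2 ratio of 0.84 (0.73 to 0.96, exact binomial p = 6.9e-52). The boric acid channel gene had 722 against 423 reads (log2 ratio 0.80, 0.63 to 0.98, exact binomial p = 3.0e-20) and *NLM1* 1840 against 1138 reads (0.72, 0.62 to 0.83, exact binomial p = 2.0e-41). A further 7 members passed P under 0.0001 with smaller ratios, all higher in WT-NAA: *GAMMA-TIP* (0.51), AT2G25810 (0.45), *PIP2B* (0.44), *GAMMA-TIP2* (0.42), *PIP2F* (0.37), *PIP1D* (0.24) and *DELTA-TIP2* (0.22). P under 0.0001 was thus passed by 10 of the 17 members with a mean of at least 100 reads, beside 14.2% of all genes of that abundance. P alone depends on read number, and *GAMMA-TIP*, *GAMMA-TIP2* and *PIP2B* are far above that minimum. Such shares are therefore not a like-for-like background for them, here and in the comparisons below.

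The shift took in most abundant members. Over the 17 abundant members the median log2 ratio was 0.30 and 13 were above 0, beside a median of -0.01 and 47.0% above 0 for 9402 genes with a mean of at least 100 reads. WT-NAA held the highest level of 9 of these 17 members, beside 23.6% of those genes. WT-Mock held the lowest level of 8 of the 17, beside 24.5%. The 7 that did not pass P were *NLM2* (log2 ratio -0.36), *PIP2C* (-0.16), *PIP3B* (-0.06), *PIP1C* (-0.03), *DELTA-TIP3* (0.00), *SIP1A* (0.06) and *PIP1B* (0.30).

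Some markers of root layers moved with this comparison. Of the 10 root layer genes 3 rose at 1.5-fold in WT-NAA, *EXPA7* of hair cells (486 against 313 reads), *Co2* of the cortex (73 against 33 reads) and *CASP1* of the endodermis (2398 against 1380 reads, log2 ratio 0.83), and 0 fell at 1.5-fold. *SUC2* of the phloem, named after its values were seen, was lower with a smaller ratio (415 against 549 reads, log2 ratio -0.37, exact binomial p = 6.4e-05). Also below the fold limit, *COBL9* of hair cells was higher (407 against 307 reads, log2 ratio 0.44, exact binomial p = 6.1e-05). So was *SCR* of the endodermis (990 against 824 reads, log2 ratio 0.29, exact binomial p = 1.5e-05). Both were likewise named after their values were seen. The list summed to 5672 reads in WT-NAA against 4349 in WT-Mock, and without *CASP1* to 3274 against 2969. Fewer cells of a type and less RNA per cell cannot be told apart in whole roots, and the part of cell makeup in the aquaporin ratios was not tested.

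In *arf7*-NAA VS *arf7*-Mock, 0 of 33 aquaporins rose at 1.5-fold, against 0.634% of all genes, and 0 fell, against 1.02%. Without the fold limit 6 members passed P under 0.0001, all among the 17 abundant ones, beside 9.72% of all genes of that abundance. *GAMMA-TIP2* (log2 ratio 0.17) and *GAMMA-TIP* (0.12) were slightly higher in *arf7*-NAA, and *DELTA-TIP3* (-0.46), *PIP2C* (-0.45), *PIP2F* (-0.36) and *DELTA-TIP2* (-0.25) were lower. *DELTA-TIP* (-0.01), *NLM1* (0.06) and AT4G10380 (-0.12), which rose in WT-NAA, had ratios whose intervals include 0. The median over the 17 abundant members was 0.06, beside -0.02 for all genes of that abundance. Of the 10 root layer genes 0 differed at 1.5-fold here, while 4 of the 11 seed genes and 3 of the 5 shoot genes were higher in *arf7*-NAA.

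**Figure D4:**
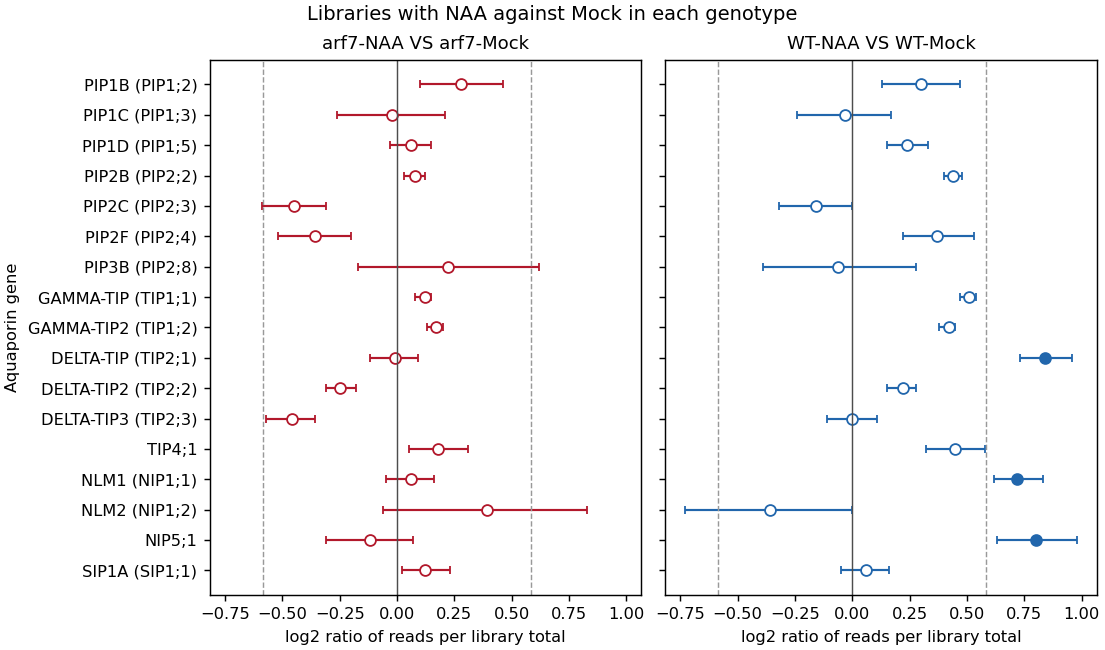
Log2 ratio of NAA over Mock for the 17 aquaporin genes with a mean of at least 100 reads, in *arf7* (left) and WT (right), with exact 95% counting intervals. Dashed lines mark 1.5-fold and filled points passed it with P under 0.0001, which are *DELTA-TIP*, *NLM1* and AT4G10380 in WT and none in *arf7*.

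Whether the response to NAA differed between the genotypes was tested directly, as the log2 ratio in *arf7* minus that in WT, with a variance from counting error, over genes with at least 10 reads in each library. Of 24 members with that depth, 4 were lower in *arf7* at 1.5-fold with P under 0.0001, against 2.20% of all genes, and 0 were higher, against 1.60%. The differences were -0.92 for *NIP5;1* (95% interval -1.17 to -0.66), -0.86 for *DELTA-TIP* (-1.01 to -0.70), -0.73 for *PIP2F* (-0.95 to -0.52) and -0.66 for *NLM1* (-0.81 to -0.52). For 3 of the 4 the change lay in WT, with little movement in *arf7*. For *PIP2F* the ratios had opposite signs, -0.36 (561 against 741 reads) in *arf7* and 0.37 (800 against 630 reads) in WT. *DELTA-TIP2*, *DELTA-TIP3*, *GAMMA-TIP*, *PIP2B* and *GAMMA-TIP2* passed P with smaller differences of -0.46, -0.46, -0.39, -0.36 and -0.25. This made 9 of 17 abundant members past P, beside 944 of 9401 genes of that abundance. This test uses the same WT libraries as WT-NAA VS WT-Mock and is not a second measurement of them. *CASP1* also had a lower response in *arf7*, by -0.80, and its relation to the aquaporin differences was not tested.

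The sequences upstream of the genes that rose in WT-NAA are shown because ARF proteins bind the letters TGTC, the core of the auxin response element. They are the 250 bases before the annotated gene start in TAIR10.1 (RefSeq), written 5′ to 3′ on the strand of the gene, with TGTC, or GACA where the match is on the other strand, in capitals. *DELTA-TIP* lies on the forward strand (chr3:5505110-5505359), and *NLM1* (chr4:10423509-10423758) and the boric acid channel gene (chr4:6435397-6435646) lie on the reverse strand.
DELTA-TIP: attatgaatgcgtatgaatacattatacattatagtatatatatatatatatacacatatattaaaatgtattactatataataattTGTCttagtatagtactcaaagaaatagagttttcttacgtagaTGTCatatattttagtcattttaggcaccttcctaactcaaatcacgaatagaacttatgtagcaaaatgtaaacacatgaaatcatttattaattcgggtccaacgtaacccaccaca
NLM1: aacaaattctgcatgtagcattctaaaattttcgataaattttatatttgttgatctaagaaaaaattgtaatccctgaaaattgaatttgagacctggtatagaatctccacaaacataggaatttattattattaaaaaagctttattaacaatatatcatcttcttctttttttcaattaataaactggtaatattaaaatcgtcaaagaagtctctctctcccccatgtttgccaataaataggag
NIP5;1: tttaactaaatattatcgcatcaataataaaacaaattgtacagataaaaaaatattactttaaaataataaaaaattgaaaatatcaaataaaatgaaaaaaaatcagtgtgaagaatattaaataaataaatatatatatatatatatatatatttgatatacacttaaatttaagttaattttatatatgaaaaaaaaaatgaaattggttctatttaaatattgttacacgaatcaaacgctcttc

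TGTC stood 2 times upstream of *DELTA-TIP*, at positions -163 and -119 from the start, and was not found in these windows of the other genes. Searched on both strands, TGTC was present in 24 of the 35 members (68.6%) and in 74.8% of 27443 protein-coding genes with the same window. The longer forms that contain it each occurred in 1 of the 35 members, too few to read as a trait of the family. TGTCTC occurred in 1 member, *SIP2* (2.86%), against 10.9% of all genes, and TGTCGG in 1, *GAMMA-TIP2* (2.86%), against 4.16%. These are matches of letters and not sites of binding.

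In *arf7*-Mock VS WT-Mock, 1 of 33 aquaporins was higher at 1.5-fold, against 1.22% of all genes, and 1 was lower, against 1.43%. *PIP2C* was higher, with 996 reads in *arf7*-Mock and 688 in WT-Mock (log2 ratio 0.60, 0.46 to 0.74, exact binomial p = 2.6e-17). It lay just past the fold limit and did not pass it when libraries were scaled by DESeq2 size factors (0.58). *NLM2*, a NIP linked to arsenite and aluminium, was lower with 78 reads in *arf7*-Mock and 151 in WT-Mock (-0.89, -1.30 to -0.48, exact binomial p = 8.2e-06). A further 8 members passed P under 0.0001 with smaller ratios, which made 10 of the 17 abundant members, beside 15.3% of all genes of that abundance. *DELTA-TIP* (0.56), *NLM1* (0.42), *DELTA-TIP3* (0.42), *GAMMA-TIP* (0.38), AT2G25810 (0.28), *DELTA-TIP2* (0.22) and *PIP2B* (0.14) were higher in *arf7*-Mock and *GAMMA-TIP2* (-0.12) was lower. The median over the 17 abundant members was 0.22, beside 0.01 for all genes of that abundance. The WT-Mock library is the same one as in WT-NAA VS WT-Mock, so these are not separate measurements. WT-Mock held the lowest level of 8 of the 17. *GAMMA-TIP*, *DELTA-TIP*, *DELTA-TIP2*, AT2G25810, *NLM1* and *PIP2B* passed P as higher than WT-Mock in both comparisons. Of the marker lists, 1 shoot gene was lower at 1.5-fold, *CAB1* with 81 reads in *arf7*-Mock and 317 in WT-Mock (log2 ratio -1.90), and 0 of the 10 root layer and 11 seed genes differed at 1.5-fold.

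In *arf7*-NAA VS WT-NAA, 0 of 33 aquaporins were higher at 1.5-fold, against 1.21% of all genes, and 1 was lower, against 1.57%. The boric acid channel gene *NIP5;1* was lower, with 441 reads in *arf7*-NAA and 722 in WT-NAA (log2 ratio -0.63, -0.81 to -0.46, exact binomial p = 1.9e-13). With it 7 of the 17 abundant members passed P, beside 12.9% of all genes of that abundance. The other 6 had smaller ratios, all lower in *arf7*-NAA: *PIP2F* (-0.43), *GAMMA-TIP2* (-0.37), *DELTA-TIP* (-0.30), *DELTA-TIP2* (-0.24), *NLM1* (-0.24) and *PIP2B* (-0.23). Of the 17 abundant members 14 were below 0 and the median was -0.23, beside 48.5% below 0 and a median of 0.01 for all genes of that abundance. The WT-NAA library is the same one as in WT-NAA VS WT-Mock, and it held the highest level of 9 of the 17. The 10 that did not pass included *PIP2C* (0.31), *GAMMA-TIP* (-0.01, -0.04 to 0.03) and AT2G25810 (0.01, -0.12 to 0.13). *Co2* and *CASP1* were lower in *arf7*-NAA as well (30 against 73 reads and 1458 against 2398 reads), and 6 seed and 3 shoot genes were higher.

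**Figure D5:**
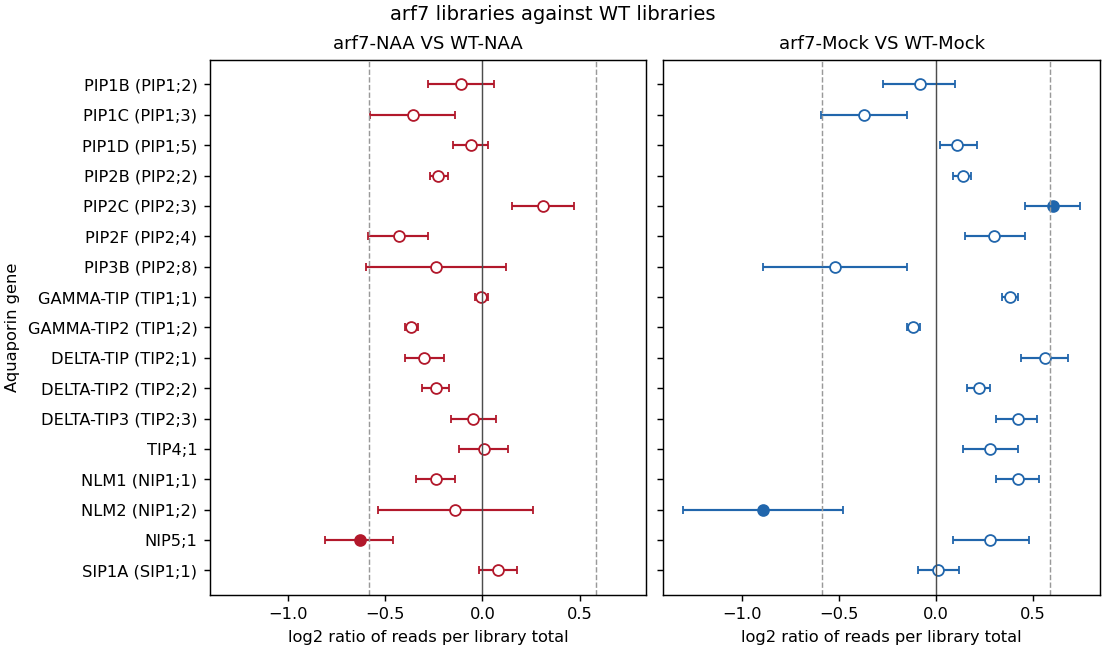
Log2 ratio of *arf7* over WT for the same 17 aquaporin genes, with NAA (left) and with Mock (right), with exact 95% counting intervals. Dashed lines mark 1.5-fold and filled points passed it with P under 0.0001, which are AT4G10380 with NAA and *PIP2C* and *NLM2* with Mock.

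Aquaporin genes were set beside 20 genes of proteins that work with them, namely boron exporters, proteins of membrane traffic and degradation, kinases and 14-3-3 proteins that act on PIPs, and the proton pumps of the same membranes. In WT-NAA VS WT-Mock and in *arf7*-Mock VS WT-Mock 0 of the 20 differed at 1.5-fold. In both comparisons of *arf7*-NAA 1 gene was higher and 0 were lower. It was *TSPO*, which binds a PIP2 protein and directs it to degradation, with 33 reads in *arf7*-NAA, 8 in *arf7*-Mock, 0 in WT-NAA and 10 in WT-Mock. *TSPO* is also known from seeds and water stress, and the part of seed RNA in its reads was not tested.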

How the data were processed

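Root RNA was sequenced in 4 libraries, assigned to conditions by their labels. For each transcript model the authors deposited the uniquely assigned reads (counts), the RPKM and the coverage as a percent of transcript length. RPKM could be recomputed from the deposited counts to a relative difference of 5.1e-15. The aligner, the counter and the read length are not given in the sources used here. The authors' comparison tables hold log2 ratios, p-values and false discovery rates and were not used, nor were their 16 per-sample columns.

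Reads and RPKM were summed over the models of a gene. Ratios were taken from summed reads per library total, and among the 20 members with at least 50 reads in each library they differed from ratios of summed RPKM by at most 0.019 (log2). Reads were compared with an exact binomial test, and 0 reads were set to 3. Intervals cover counting error only. A normal test with counting variance (0.5 added to each count) compared the NAA responses. Python 3.11.15, NumPy 2.4.6, pandas 2.3.3, SciPy 1.17.1 and Matplotlib 3.10.9 were used. Alternatives were edgeR 4.0.16 TMM factors, DESeq2 1.42.0 size factors (R 4.3.3), the model with the most reads, a minimum of 10 reads, a Benjamini-Hochberg adjusted p under 0.001, a pseudocount of 1 RPKM and edgeR's exact test with an assumed coefficient of variation of 0.2 or 0.4. The scripts were tested on simulated data with counting error only and 2-fold changes planted. Spread between replicates and changes below 2-fold were not checked by it.

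Members with at least 20 RPKM in any library, or that passed a test, are given in every library, and genes of the other lists only where they passed at 1.5-fold with at least 10 reads. The label checks, the list of markers whose reads were summed, and *SUC2*, *COBL9* and *SCR*, named after their values were seen, are exceptions. The rule for members uses gene identifiers only, but the family and the lists were chosen with earlier results of these data known. All 35 members matched the RefSeq table of TAIR10.1, and for the 33 listed in the deposited tables the coordinates overlapped the RefSeq gene. Coding sequences were those of the RefSeq transcript with the shortest and lowest accession.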

Additional observations from a re-analysis of the deposited data

Results flagged for a closer look

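The ratio of NAA over Mock was lower between the *arf7* libraries than between the WT libraries in 4 of 24 aquaporin genes. This was by a test of the difference itself, which 2.20% of all genes passed in that direction. The log2 difference, *arf7* minus WT, was -0.92 for *NIP5;1*, -0.86 for *DELTA-TIP*, -0.73 for *PIP2F* and -0.66 for *NLM1*. The test covers counting error only, and with 1 library per condition the spread between plants could not enter it. Each of these except *PIP2F* was lowest in WT-Mock and highest in WT-NAA, so both WT libraries bear on its difference.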

How the results depend on the processing

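Of the alternatives, edgeR's exact test with an assumed spread between replicates moved the counts most. With an assumed coefficient of variation of 0.2 or 0.4 the aquaporins that differed at 1.5-fold fell to 0, against 3 by the binomial test, in WT-NAA VS WT-Mock, to 0 of 2 in *arf7*-Mock VS WT-Mock and to 0 of 1 in *arf7*-NAA VS WT-NAA. With 0.2 it left 27, 45 and 96 of all genes in these comparisons, and with 0.4 it left 2, 1 and 17. The ratios themselves stayed as given, and the true spread cannot be measured with 1 library per condition. With DESeq2 size factors 1 aquaporin in place of 2 differed in *arf7*-Mock VS WT-Mock, because *PIP2C* came to a log2 ratio of 0.58. No ratio that passed a test turned direction, and the 4 differences of the NAA response stayed past the threshold under those run for them, where no assumed spread was tried. Summed subfamily ratios moved by at most 0.03 (log2) under another scaling, where that of the SIPs in *arf7*-Mock VS WT-Mock came to -0.01 in place of 0.00. The TIP ratio in *arf7*-NAA VS *arf7*-Mock came to 0.08 in place of 0.06 with TMM or DESeq2 factors. It was the only one that another scaling moved by more than its counting error. Without the 10 members of low coverage, a choice made after seeing the data, the summed ratios moved by at most 0.08. This was for the PIP1 genes in *arf7*-Mock VS WT-Mock, to 0.11. No paired analysis was possible because each condition has 1 library and the labels give no replicate numbers. Depth limits the 9 members with reads that had fewer than 10 reads in some library.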
